A study of Mus musculus with 5 samples.

Results

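Iron storage, transport and scavenging genes were followed in the liver of mice that overexpress Fra-1 in hepatocytes (Fra-1hep) and of control mice. The set held 10 genes chosen by name: Hamp, Hamp2, Tfr2, Tfrc, Trf, Ftl1, Fth1, Slc40a1, Hpx and Hp. The accessions printed on the array gave them 13 of its 55681 distinct probes, and 12 of these 13, covering all 10 genes, were bright enough to be tested. Fra-1 is a subunit of the transcription factor AP-1, which binds DNA as a dimer of Fos and Jun proteins.

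Each of 4 arrays compared liver RNA of an individual Fra-1hep mouse, in the dye Cy5, with RNA pooled from 5 controls (C57BL/6J wt) in Cy3. A single further array carried the reverse labelling, a Fra-1hep pool in Cy3 against the control pool in Cy5. The make-up of this Fra-1hep pool is unknown here, so it may hold the same 4 mice. Both groups were C57BL/6J mice of 26 to 28 weeks on a high-fat diet (45% of kcal from fat) begun at 4 weeks of age, so no mouse on a standard diet was compared. The sources used here do not give the promoter that drives Fra-1 or the design of the transgene. Because the controls were always the same pool, it counted as 1 control sample, and the spread among control mice is missing from every error below.

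The liver is the main site of iron storage and secretes the hormone that sets how much iron enters blood. Hepcidin, made by hepatocytes in response to BMP signals through SMAD proteins and to interleukin-6 through STAT3, binds the exporter ferroportin and sends it to degradation, so that iron stays in cells. Iron travels in plasma on transferrin, is stored inside the ferritin shell, and is recovered from free haem and haemoglobin by the plasma proteins hemopexin and haptoglobin.

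The upstream sequences of the hepcidin genes are shown because AP-1 and STAT motifs lie side by side in both, with a BMP motif near them in Hamp. RefSeq windows of the 250 bases before a gene start (build GRCm38.p6) were present for 6 of the 10 genes. Hamp lies at chr7:30944030-30944279 and Hamp2 at chr7:30924182-30924431, both on the minus strand and written 5′ to 3′ up to the base before the start. Capitals mark the matches to the motifs searched on both strands: TGAGTCA or its reverse complement TGACTCA for AP-1, TTCNNNGAA for STAT, and GGCGCC, the palindrome within BMP response elements.
Hamp: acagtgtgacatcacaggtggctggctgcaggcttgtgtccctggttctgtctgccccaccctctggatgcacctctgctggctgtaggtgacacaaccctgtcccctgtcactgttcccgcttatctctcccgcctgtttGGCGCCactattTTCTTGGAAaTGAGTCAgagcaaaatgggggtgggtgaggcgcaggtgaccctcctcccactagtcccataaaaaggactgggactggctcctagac
Hamp2: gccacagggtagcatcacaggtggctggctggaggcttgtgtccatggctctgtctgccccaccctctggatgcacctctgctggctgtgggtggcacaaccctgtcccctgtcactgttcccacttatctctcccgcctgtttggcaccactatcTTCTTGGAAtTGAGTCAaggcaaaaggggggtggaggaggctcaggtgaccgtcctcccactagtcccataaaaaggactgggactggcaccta
The windows aligned with 227 identical bases of 250 and 6 gap positions. In Hamp, TGAGTCA sat at -87 to -81 from the start, next to a STAT match at -97 to -89, with GGCGCC at -109 to -104. In Hamp2 the same AP-1 letters sat at -84 to -78 and the STAT match at -94 to -86, and no GGCGCC was found in the window. Of 32851 RefSeq windows of this length, 4.46% held the AP-1 letters, 7.02% the STAT pattern and 9.59% GGCGCC. AP-1 and STAT matches starting within 20 bases of each other, a distance chosen after these matches were seen, occurred in 11 windows (0.0335%). No AP-1 match, and no match to the CRE letters TGACGTCA (1.55% of windows), was found in the windows of Ftl1, Fth1, Hpx and Tfrc, or in those at other starts of Tfr2. The only other match in them was GGCGCC in Tfrc, at -89 to -84. These are matches of letters, not measured sites.

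Values below are log2 ratios of Fra-1hep over control, given in the order of mice 1 to 4 and then the swapped pool. A difference that belongs to the mice keeps its sign on the swapped array, whereas one that belongs to the dyes turns round. A limma model therefore fitted 2 terms to each probe, the genotype and the dye effect, the second being the part of the ratio that favours Cy5. The estimate of genotype lies midway between the mean of the 4 mice and the swapped pool, so that the swapped array weighed 4 times as much as any mouse. Its error comes from the 4 mice, and a deviation of the swapped array itself cannot be told apart from a dye effect. All adjusted p-values are limma's, with Benjamini-Hochberg adjustment over 28109 probes and a threshold of 0.05.

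At this threshold 6 of the 12 iron probes were lower in Fra-1hep liver (Ftl1, Fth1, 1 of 2 Tfrc probes, Slc40a1, Hpx and Hp) and 1, for Trf, was higher. Over all tested probes 25% passed, 14.4% lower and 10.6% higher (4045 and 2971 probes; 3575 and 1701 with median centring of the arrays in place of loess). Taking only the brightest probe of each gene, 5 of the 10 genes were lower and 0 higher, against 18.4% and 12% of 13540 named genes (30.4% in either direction). No estimate changed sign under any of the 16 other ways of processing the data. Without a dye term only 3 calls were left, those for Slc40a1, Hpx and the Trf probe A_55_P2037585.

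**Figure D1:**
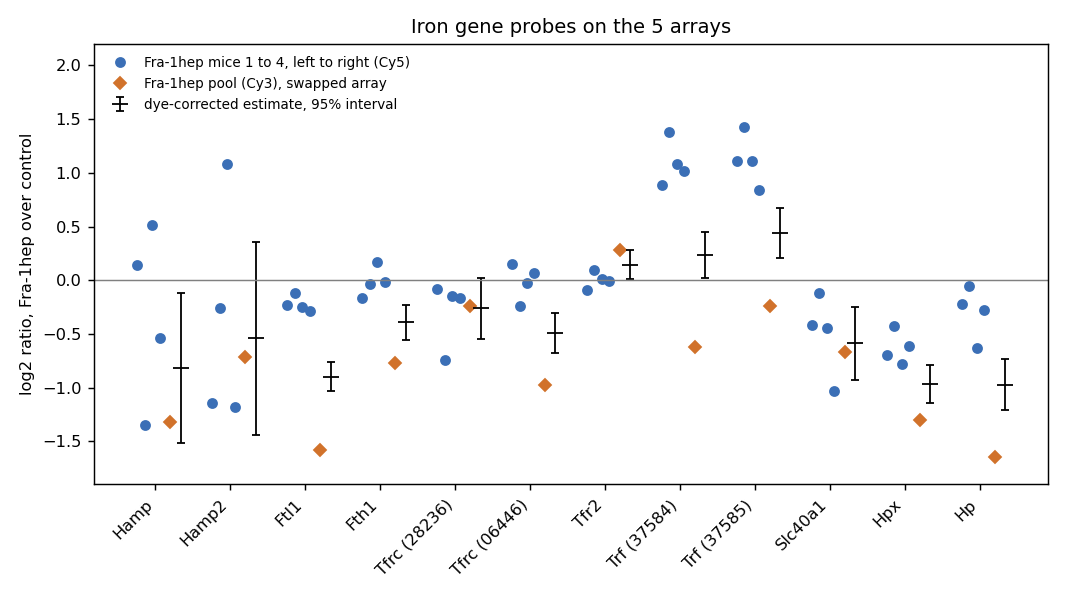
Log2 ratio of Fra-1hep over control for the 12 tested iron probes, with 1 blue point for each of the 4 mice, an orange diamond for the swapped pool, and the dye-corrected estimate with its 95% interval in black. Trf stands above 0 in all 4 mice and below 0 in the swapped pool, whereas Hpx is below 0 on all 5 arrays.

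Hamp encodes hepcidin. Its ratios were 0.14, -1.35, 0.52 and -0.54 in the 4 mice and -1.32 on the swapped array. Mice 1 and 3 were above the control pool and mice 2 and 4 below it. The estimate was -0.81 ± 0.30 (SE, n = 4 mice and 1 pool), with a 95% interval from -1.51 to -0.12 and an adjusted p of 0.0875. It passed the threshold without mouse 2 (-0.64, adjusted p = 0.0406), without mouse 3 (-0.95, adjusted p = 0.0428) and with median centring (-0.77, adjusted p = 0.0326). The mice alone averaged -0.31 (adjusted p = 0.415), and without a dye term the estimate was -0.51 (adjusted p = 0.192), so its size depends on the swapped array.

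Hamp2 is the second hepcidin gene of the mouse. It gave -1.14, -0.26, 1.08 and -1.18 in the mice and -0.71 in the pool, so that mouse 3 alone lay above the controls. The estimate was -0.54 ± 0.38, with an interval from -1.44 to 0.36 and an adjusted p of 0.341. Without mouse 3 it was -0.78 (adjusted p = 0.029), and the mice alone averaged -0.37 (adjusted p = 0.441). The spread among mice was the most distinctive measurement of both hepcidin probes. The SD over the 4 mice was 0.82 for Hamp, larger than that of 99.8% of the tested probes, and 1.06 for Hamp2, larger than that of 99.9%. Mouse 3 had the highest ratio of both genes, but the lowest Hamp was in mouse 2 and the lowest Hamp2 in mouse 4. Since the genes are near copies, a probe may read both, and the split between them is uncertain.

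Tfr2, the receptor through which hepatocytes sense transferrin-bound iron, gave -0.09, 0.10, 0.01 and -0.01 in the mice and 0.28 in the pool. The mice lay on both sides of 0. Its estimate was 0.14 ± 0.06 (adjusted p = 0.115), with an interval from 0.01 to 0.28.

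Tfrc, the receptor that brings transferrin into cells, was read by 3 probes that did not give the same answer. The probe A_52_P228236, printed on 10 spots, gave -0.09, -0.74, -0.14 and -0.16 in the mice and -0.24 in the pool. All 5 values were below 0, with mouse 2 far from the rest, and the estimate was -0.26 ± 0.12 (adjusted p = 0.158). The probe A_65_P06446 gave 0.16, -0.24, -0.02 and 0.07 in the mice and -0.97 in the pool. Its estimate of -0.49 ± 0.08 passed the threshold (adjusted p = 0.00538) through the swapped array, since the mice alone averaged -0.01 (adjusted p = 0.933). Raw signals were low there, 73 for the Fra-1hep pool against 248 for the controls on that array. The probe A_51_P167876 was well above background in no Fra-1hep sample and in the control pool on 1 array. Its ratios of 0.13, -0.13, -0.13, -0.26 and 0.09 were not tested.

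Trf encodes transferrin, the iron carrier of plasma. The probe A_55_P2037584 gave 0.89, 1.38, 1.08 and 1.02 in the mice and -0.62 in the pool. The probe A_55_P2037585 gave 1.11, 1.43, 1.11 and 0.84 in the mice and -0.24 in the pool. Both probes were thus higher in every mouse and lower in the swapped pool, a pattern that 9.59% of tested probes had. Before normalization, the control pool read 48827 to 86588 for A_55_P2037584 in Cy3 on the mouse arrays and 214864 in Cy5 on the swapped array. Fra-1hep RNA read 229327 to 379831 in Cy5 and 74748 in Cy3. In either case the Cy5 channel was the brighter. Raw Hpx signals did the same, although the normalized Hpx ratios did not turn. For Hpx, Cy5 read 136360 to 187968 and Cy3 101454 to 129329 on the mouse arrays, against 236772 and 51817 on the swapped array. Raw signals alone therefore do not show a turn for Trf.

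The mice alone would put Trf at 1.09 and 1.12 by these probes (adjusted p = 0.000141 and 0.000196). With the dye effect removed the estimates were 0.23 ± 0.09 (adjusted p = 0.101) and 0.44 ± 0.10 (adjusted p = 0.0186, 1.36-fold higher). The second call was lost with the software's processed signals (0.45, adjusted p = 0.0619), with the deposited log ratios (adjusted p = 0.0618) and when the spread of the pooled controls was added (adjusted p = 0.0668). The dye effects, 0.86 (adjusted p = 0.00307) and 0.68 (adjusted p = 0.0137), were larger than the genotype estimates.

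Ftl1 encodes the light chain of ferritin, the shell that holds stored iron. It gave -0.24, -0.12, -0.25 and -0.28 in the mice and -1.58 in the pool. All 5 arrays were below 0, with the mice close together and the pool 1.36 below their mean. The estimate was -0.90 ± 0.06, that is 1.87-fold lower (adjusted p = 0.000107), beside a dye effect of 0.68 (adjusted p = 0.00112). The mice alone gave -0.22 (adjusted p = 0.0156), so the size of the decrease depends on the swapped array. Without a dye term the call was lost (-0.49, adjusted p = 0.0958).

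Fth1 encodes the ferritin heavy chain, which oxidises iron as it enters the shell. Its ratios were -0.16, -0.03, 0.17 and -0.01 in the mice and -0.77 in the pool. The estimate of -0.39 ± 0.07 (1.31-fold lower, adjusted p = 0.00808) therefore rested on the swapped array, because the mice alone averaged -0.01 (adjusted p = 0.908). The dye effect was 0.38 (adjusted p = 0.0333). Without a dye term the call was lost as well (-0.16, adjusted p = 0.362).

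Slc40a1 encodes ferroportin, the cellular iron exporter that hepcidin controls, which macrophages and hepatocytes both make. It gave -0.42, -0.12, -0.45 and -1.03 in the mice and -0.67 in the pool. All 5 arrays were below 0, and the pool lay among the mice. The estimate was -0.59 ± 0.15 (1.5-fold lower, adjusted p = 0.0258) with a dye effect of only 0.08, and the mice alone gave -0.50 (adjusted p = 0.0234). The call was lost with processed signals (adjusted p = 0.0695), a background offset of 0 (adjusted p = 0.0573), the deposited log ratios (adjusted p = 0.0694) and added pool spread (adjusted p = 0.0864).

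Macrophage markers were counted because macrophages make Slc40a1. Of 12 Kupffer cell and macrophage markers 11 were tested. In Fra-1hep 5 were lower and 1 (Cd163) higher, against 18.4% and 12% of all named genes. These 6 calls came to 3 without mouse 3, 3 without mouse 4, and 2 with processed signals or with added pool spread. Over all tested probes 7016 calls came to 5427, 5311, 5477 and 3414 in those settings. The summed normalized signal of the 11 markers ranged from 31533 to 61627 in Fra-1hep and from 65130 to 78252 in controls. As a log2 ratio that sum was -0.88, -0.20, -0.66 and -1.10 in the mice and -0.55 in the pool. It was lowest in mouse 4 and highest in mouse 2, as Slc40a1 was. Endothelial markers shared this: their sum was at -0.63, -0.16, -0.41 and -0.65 in the mice and -0.40 in the pool. Clec4f (0.07), Vsig4 (0.05) and Timd4 (0.13), which mark Kupffer cells resident in the liver, did not pass the threshold, and Cd163, the haemoglobin scavenger receptor, was not well above background in controls. The part of these cells in the Slc40a1 result was not tested. In whole liver, fewer cells of a type and less RNA per cell cannot be told apart.

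Hpx encodes hemopexin, which binds free haem in plasma and delivers it to the liver. It gave -0.69, -0.43, -0.78 and -0.62 in the mice and -1.30 in the pool, below 0 on every array. The estimate was -0.96 ± 0.07, a 1.95-fold lower signal (adjusted p = 0.000267). The dye effect was 0.34 (adjusted p = 0.0568), and the mice alone gave -0.63 (adjusted p = 0.000673). Hpx was the only iron probe past the threshold under all 16 alternatives, with estimates from -1.12 to -0.63.

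Hp encodes haptoglobin, which binds free haemoglobin and rises in blood during inflammation. Its ratios were -0.22, -0.05, -0.63 and -0.27 in the mice and -1.65 in the pool. Every array was below 0, by very little in mouse 2. The estimate was -0.97 ± 0.10 (1.96-fold lower, adjusted p = 0.000912) beside a dye effect of 0.68 (adjusted p = 0.0148). The mice alone gave -0.29 (adjusted p = 0.0432), and without a dye term the call was lost (-0.56, adjusted p = 0.0734). With 1 sign on all 5 arrays, Hp, Hpx, Ftl1, Slc40a1 and the Tfrc probe A_52_P228236 made 5 of 12 iron probes, against 34% of all tested probes.

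The dye effect followed the brightness of the spot. It passed the threshold for 6 of the 12 iron probes (both Trf probes, Ftl1, Fth1, Hp and the Tfrc probe A_65_P06446) against 3.83% of all tested probes. Among the 100 brightest probes it was positive for all 100, passed for 76, and had a median of 0.54. The next 200 probes had a median of 0.26, and all tested probes 0.00. Those 100 included 6 iron probes of 5 genes: Trf with 2, and Ftl1, Fth1, Hpx and Hp. In these 100 probes the median ratio was 0.61 over the mice and -0.60 in the swapped pool, whereas the median genotype estimate was -0.04. No iron spot was saturated by the scanner's flag.

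**Figure D2:**
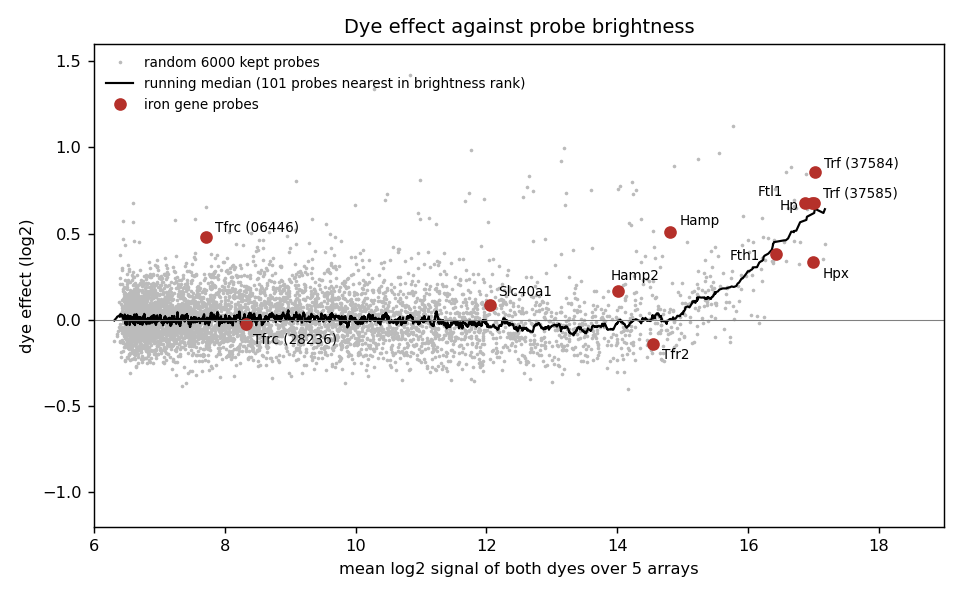
Dye effect (log2, positive where Cy5 read higher) against mean log2 signal of both dyes for a random sample of tested probes in grey and the 12 iron probes in red, with the running median over probes of like brightness in black. The median stays near 0 and climbs at the bright end, where Trf, Ftl1, Hp, Fth1 and Hpx lie; the dim Tfrc probe A_65_P06446 has a large dye effect away from that rise.

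The 6 bright iron probes were read again under other normalizations. With the software's own processed signals the median dye effect of the 100 brightest probes shrank to 0.19, and it grew to 1.26 with median centring. With processed signals Ftl1 gave -0.66 to -0.53 in the mice and -1.27 in the pool, and Hp -0.94 to -0.47 and -1.34. Fth1 gave -0.56 to -0.14 in the mice and -0.40 in the pool, and Hpx -1.23 to -0.92 and -0.90. The pool now lay within the range of the mice for Fth1 and just above it for Hpx. For Trf the mice stayed above 0 (0.48 to 0.94 and 0.46 to 1.06), and the pool was at -0.23 for A_55_P2037584 and at 0.16 for A_55_P2037585.

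A further alternative, added after the data were seen, subtracted the running median of the dye effect at each probe's brightness from every array. Its fit had no dye term. The median came from the dye effects of these same arrays, so mice and pool of bright probes draw together by construction. The signs and p-values that follow are therefore no independent check. It put Ftl1 at -0.82, -0.71, -0.84 and -0.87 in the mice and -0.99 in the pool. Hpx came to -1.29, -1.02, -1.38 and -1.21 against -0.70, and Hp to -0.84, -0.67, -1.25 and -0.89 against -1.03. Fth1 was at -0.62, -0.49, -0.29 and -0.47 in the mice and -0.32 in the pool, so all 4 mice were then below 0. Both Trf probes were above 0 on all 5 arrays, with estimates of 0.36 (adjusted p = 0.0218) and 0.48 (adjusted p = 0.00336). The dim Tfrc probe A_65_P06446 fell short, at -0.20 (adjusted p = 0.351).

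Over 7 settings that balance the dyes, the estimates of the bright probes moved little. All 7 use the same swapped array, so this does not test a deviation of that array. Those with a dye term take the midpoint of the mice and that array, where a shift that turns with the dyes cancels. Processed signals and deposited ratios are nearly the same values, counted here as separate settings. Ftl1 ranged from -0.94 to -0.81, Fth1 from -0.44 to -0.32, Hpx from -1.12 to -0.88 and Hp from -1.01 to -0.88, each past the threshold in all 7. The Trf probe A_55_P2037585 ranged from 0.44 to 0.52 and passed in 5, and A_55_P2037584 ranged from 0.23 to 0.36 and passed in 2. Slc40a1 ranged from -0.59 to -0.52 and passed in 4.

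**Figure D3:**
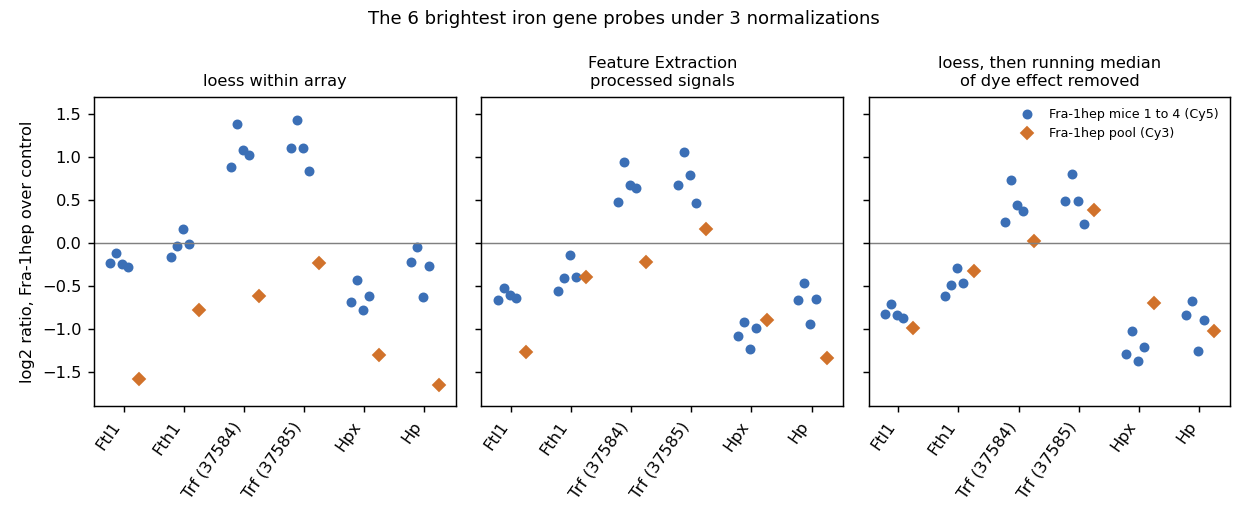
Log2 ratios of Fra-1hep over control for the 6 brightest iron probes under loess, processed signals, and loess with the brightness curve of the dye effect removed, with 1 blue point per mouse and an orange diamond for the swapped pool. For Ftl1, Hp and both Trf probes mice and pool lie closer in the last panel than in the first, for Hpx the pool passes from below the mice to above them, and Ftl1, Hpx and Hp lie below 0 in all panels. The subtraction in the last panel draws mice and pool of bright probes together by construction.

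Genes around these members were counted on their brightest probe, for which 12% of all named genes were higher and 18.4% lower. Of 22 tested genes that control hepcidin, 2 were higher and 6 lower, a share near that of all named genes, with a median of -0.09 against -0.02 over all. Gdf15, a stress-induced cytokine related to the BMPs, was the lowest at -2.10 (adjusted p = 0.000228). Bmp2, a hepcidin-inducing ligand made by liver endothelium, was at -0.78 (adjusted p = 0.00343), and its receptor subunit Bmpr2 at -0.74 (adjusted p = 0.000349). Bmpr2 gave -0.33, -0.28, -0.12 and -0.26 in the mice and -1.22 in the pool, with a dye effect of 0.49, so its size depends on the swapped array. Stat3, which carries the interleukin-6 signal to hepcidin, was at -0.37 (adjusted p = 0.00947). Bmp6, the other ligand, named here like Id1 after its values were seen, was at -0.18 and did not pass. The 8 calls came to 5 with processed signals or with added pool spread and to 12 in the mice alone. Over all tested probes 7016 calls came to 5477 with processed signals, 3414 with added pool spread and 9330 in the mice alone.

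Id1, a target of the same BMP pathway as Hamp, gave -0.89, -0.86, 0.05 and -1.25 in the mice and -0.71 in the pool (estimate -0.72, adjusted p = 0.0402). Mouse 3, the highest for both hepcidin genes, was also the highest for Id1. In the same list Smad6 (-0.15) and Smad7 (-0.24) did not pass. Atoh8 passed at -0.26 (adjusted p = 0.0404), with the pool at only -0.04. These genes too were named after their values were seen. Endothelial markers, whose cells make Bmp2, were lower for 8 and higher for 0 of 10 tested, against 18.4% and 12% of all named genes. The median was -0.45. Their summed signal was 14868 to 21254 in Fra-1hep and 22839 to 31037 in controls. With processed signals or with added pool spread 3 endothelial genes passed. Kdr did not pass at 0.07 by its brightest probe, while its other probe was at -0.75. The part of these cells in the Bmp2 result was not tested.

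Of 22 tested genes of iron uptake, export and cell iron, 2 were higher and 5 lower (median -0.10), again near the share of all named genes. Steap2, a ferric reductase that serves transferrin-bound iron after uptake, was at -1.46 (adjusted p = 0.000607), and the related Steap4 at -0.60 (adjusted p = 0.0037). The ferroxidases that load exported iron onto transferrin were lower too: Cp, ceruloplasmin, at -0.40 (adjusted p = 0.0151) and Heph, hephaestin, at -0.28 (adjusted p = 0.0138). Of the 5, Steap1 was not well above background in Fra-1hep, so its size is only a bound. These 7 calls came to 4 without mouse 4 and 4 with processed signals, but to 13 (11 lower) in the mice alone and 11 (10 lower) without a dye term. Over all tested probes 7016 calls came to 5311, 5477, 9330 (4836 lower) and 7174 (4000 lower) in those settings.

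Of 21 tested haem genes, 4 were higher and 3 lower (median 0.02), in all a share near that of all named genes. Blvrb, a biliverdin reductase, was at -0.59 (adjusted p = 0.00384), and the haem exporter Flvcr1 at -0.36 (adjusted p = 0.00703). Hmox1, which breaks haem down, was at -0.60 by its brighter probe (adjusted p = 0.0269) and at -0.25 by the other. Ppox, an enzyme of haem synthesis, was at 0.25 (adjusted p = 0.0178), with 0.06 to 0.19 in the mice and 0.36 in the pool. The 7 haem calls came to 3 without mouse 4, 3 with median centring, 4 with processed signals and 10 in the mice alone. Over all tested probes 7016 calls came to 5311, 5276, 5477 and 9330 in the same order. With added pool spread 0 genes were higher and 2 lower in the haem list, and likewise in the list of iron uptake and export.

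Hpx and Hp belong to the acute phase proteins. Of 24 others tested, 7 were higher and 8 lower (median -0.13), against 12% and 18.4% of all named genes. This count takes no account of which way each protein moves in inflammation. The 4 with the smallest p were Fgb at 1.63 (adjusted p = 1.29e-05), which carried a dye effect of 1.00, Saa3 at -2.06 (adjusted p = 3.47e-05), Orm3 at -2.67 (adjusted p = 4.88e-05) and Lcn2 at -1.80 (adjusted p = 5.41e-05). Hepatocyte markers, the check of the labelled tissue, were all well above background in both groups. Of 14, 4 were higher and 1 lower by the fit, 3 passed without any single mouse, and the mice alone called 8 higher. Over all tested probes the 2971 higher calls came to 4494 in the mice alone. The summed signal of the 14 markers, a bright one, had log2 ratios of 0.46 to 0.55 in the mice and -0.19 in the pool.

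Blood and granulocyte markers were counted because such cells also express Tfrc, Slc40a1 and Hp. Over all named genes 12% were higher and 18.4% lower. Of 13 listed erythroid and blood markers 9 were tested. Among these, 6 were lower and 0 higher (median -0.37), and 0 passed with processed signals or with added pool spread. Their summed signal was 132096 to 201108 in Fra-1hep and 191113 to 248061 in controls. As a log2 ratio the sum was -0.36, -0.05, 0.05 and -0.64 in the mice and -0.91 in the pool, so mouse 3 was not below the controls. Hba-a2, the brightest of these genes, had a dye effect of 0.56 (adjusted p = 0.065) and was above 0 in mice 2 and 3 (0.16 and 0.32). Ermap, called lower at -0.20, was above 0 in every mouse (0.14, 0.17, 0.04 and 0.07) and at -0.51 in the pool. Epor (0.19) and Klf1 (0.18) had estimates above 0 and did not pass. Of 9 tested neutrophil markers 7 were higher and 0 lower (median 2.17), with sums of 19622 to 56529 in Fra-1hep and 5148 to 7391 in controls. Of 9 listed exocrine pancreas markers only 4 were tested, and 3 were higher. Cela1 was at 3.34, but Amy2a5 only at 0.54 and Ctrb1 at 0.29, and Cel, at 0.01, did not pass. The part of these cells in the iron gene results was not tested.

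**Figure D4:**
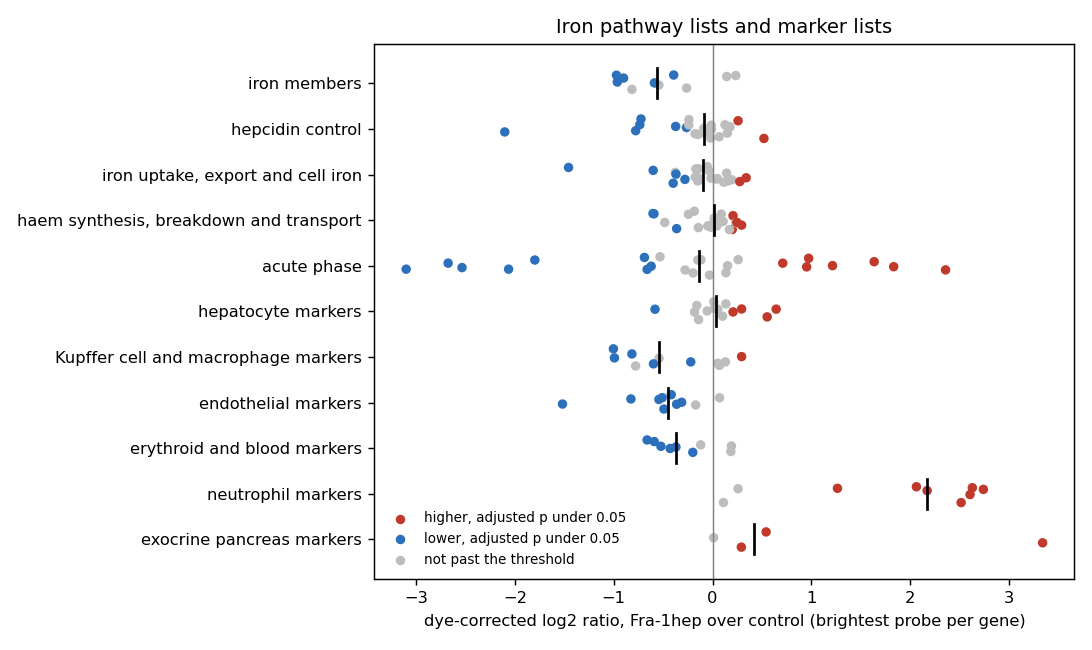
Dye-corrected log2 ratio of Fra-1hep over control for the brightest probe of each gene in the iron members, 4 related lists and 6 marker lists, red where higher and blue where lower at the threshold, grey where not past it, with the list median as a black bar. The members have a median of -0.56, the hepcidin control list -0.09 and the neutrophil markers 2.17.

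Named genes were ranked by the root mean square difference of their log2 ratios from each member past the threshold over the 5 arrays. Among so many genes some lie near any probe, and no reference distance was computed. Nearest to Hpx were Slc4a4 (0.10) and Iigp1 (0.10). Slc40a1 lay nearest to Fam89a and Lrat, both at 0.15, and Ftl1 to Ceacam2 (0.15) and Knop1 (0.18). The nearest gene to Hp was Ftl1 (0.18) and the next Knop1 (0.25). Hp and Ftl1 were closest in mouse 4 (-0.27 and -0.28) and furthest apart in mouse 3 (-0.63 and -0.25). Fth1 was nearest to Cald1 (0.08) and Bcl10 (0.10), Trf to Golga7b and Psme3 (both 0.24), and the Tfrc probe A_65_P06446 to B230219D22Rik (0.09) and Whamm (0.11). These distances describe 5 arrays that share the control pool.

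The arrays had 47.2% to 54.7% of spots well above background in Cy5 and 47.7% to 61.5% in Cy3. Correlations of log2 ratios over tested probes were 0.72 to 0.82 between mice and 0.57 to 0.59 between a mouse and the swapped pool. Mouse 1 was alone on its slide, and the other 4 arrays shared the other, so that values without mouse 1 are those within a slide. No iron call was lost without mouse 1.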

How the data were processed

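Liver RNA was hybridised to 5 Agilent 2-colour arrays, with 100 ng labelled per sample and RNA integrity above 7.8, per the labels' protocols. The authors extracted the spots with Feature Extraction, whose version is 10.7 in the submitters' processing notes and 10.7.3.1 in the file headers. Per the file headers the deposited scanner files hold raw median intensities with local backgrounds, processed intensities already background-subtracted and dye-normalized, log10 ratios of Cy5 over Cy3, and other columns of 0 or 1 flags. The deposited series table is in log2 units. Regressed on the scanner ratios, it had a slope of 1.00 for each mouse and -1.00 for the array with reversed dyes, so its direction is Fra-1hep over control. It was not centred, with column medians from -0.04 to 0.13, and no other step behind it is given in the sources used here.

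From the median intensities, background was corrected by normexp with an offset of 50 and arrays were normalized within themselves by loess (limma 3.58.1, R 4.3.3). Control spots and 189 outlier spots had weight 0, spots of a probe were averaged, and the 28115 probes that at least 3 arrays read well above background, in whichever channel, were kept. For 6 of them the dye term could not be fitted. Genotype and dye were fitted with lmFit and eBayes (3 residual and 4.30 prior degrees of freedom), as tested on simulated data. Members and lists were chosen with earlier results of these data known. Probes were named through their accessions in RefSeq GRCm38.p6 (26056 of 55681 matched). The files name no genome build for the probes, so no probe position is given.

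Alternatives were no dye term, no swapped array, each mouse left out, processed signals, offset 0, median centring, the deposited ratios, no or a stricter filter, the brightest probe per gene, array weights, and errors enlarged for 5 pooled controls given the spread of the Fra-1hep mice (added pool spread). Removing the brightness curve of the dye effect was added after the data were seen. All 10 members were named. From each related list up to 4 genes were named, those with the smallest p that passed the threshold and kept 1 sign over the 5 arrays. For each member past the threshold the 2 nearest genes over the arrays were given. The number of arrays limits the precision.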

Additional observations from a re-analysis of the deposited data

Results flagged for a closer look

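For the Tfrc probe A_52_P228236, mouse 2 at -0.74 lay apart from the other 3 mice. The gap to the nearest of them was 0.88 of the whole range, above Dixon's critical value of 0.829 for 4 samples. Chance gives such a gap in about 1 in 20 groups, and 13 probes were examined. For 6 iron probes the 4 mice and the swapped pool differed by the test of the dye term, with the mice higher in each. The mean of the mice minus the pool was 1.71 and 1.36 for the Trf probes A_55_P2037584 and A_55_P2037585. It was 1.36 for Ftl1, 1.36 for Hp, 0.76 for Fth1 and 0.96 for the Tfrc probe A_65_P06446. Because the pool was read with the dyes reversed, dye and pool cannot be told apart in these differences.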

How the results depend on the processing

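The 7 calls among iron probes came to 3 without a dye term, ranged from 7 to 9 with a mouse left out, and stayed within 1.5 times 7 under the other alternatives. The 7016 calls over all tested probes came to 3414 with added pool spread and ranged from 5311 to 6761 with a mouse left out. The 37 calls among 89 genes of the 4 related lists, where 30.4% of all named genes passed, came to 23 with added pool spread. They ranged from 29 to 38 with a mouse left out. The 6 dye effects past the threshold among iron probes came to 0 with processed signals, 0 with the deposited ratios, 3 with offset 0 and 10 with median centring. With a mouse left out they ranged from 3 to 6, the 3 being without mouse 4. The causes of these changes were not tested. No value reversed its sign. Each ratio already set Fra-1hep RNA against the control pool on the same array. The mouse arrays could not be paired with the swapped array, because they share fewer than 2 replicate numbers. The limits are 1 swapped array, 1 control pool and 4 mice: the swapped array has no replicate, dye and pool cannot be separated, and the spread among controls was only modelled.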

Other observations

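Some genes of the related lists were looked at after their values were seen. Il6ra, the receptor through which interleukin-6 reaches hepatocytes, was at 0.52 (adjusted p = 0.0126) and above 0 on all 5 arrays. Aco1, which as an iron regulatory protein binds ferritin and transferrin receptor transcripts when iron is scarce, was at 0.34 (adjusted p = 0.0279), also above 0 on all 5 arrays. Tmprss6, a protease that lowers hepcidin, was at 0.26 and passed the threshold, with mouse 1 at -0.04 and the pool, at 0.45, above every mouse. Alas1, the rate-limiting enzyme of haem synthesis in liver, varied widely, at 0.81 in mouse 1, -1.26 in mouse 2, -0.33 in mouse 3, -0.18 in mouse 4 and -0.73 in the pool, and did not pass.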
